A study of Mus musculus with 6 samples.

Results

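The mRNAs of 43 tRNA modification enzymes and their partner subunits were followed by Ribo-seq, the sequencing of mRNA fragments covered by translating ribosomes, in 6 mouse libraries. They were chosen by name, though with earlier results of these data known. They were found through the mouse symbol of the Ensembl gene ID of each row, and 42 of the 43 were listed among 18437 mRNAs. Adat3, the partner of Adat2, was not listed in any library. Per the labels, WT C57BL/6J mice aged 4 weeks, without treatment, gave 1 library each of heart, lung, brain, kidney, colon and small intestine. All 6 libraries therefore shared strain, genotype and age, and whether 1 or several animals gave each library is not given in the sources used here. The study's main experiment, a time course of a mouse macrophage cell line after LPS, was not analysed here. The values were RPKM, the reads on a coding sequence (CDS) scaled by its length and by all reads on CDSs of the library, which is a ribosome density and can be compared between mRNAs.

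Modified nucleosides are placed on tRNAs after transcription, many of them in the anticodon loop. At the wobble position, the first base of the anticodon, they change which codons are read and how well, and at the purine next to the anticodon they hold the reading frame. Others lie in the body of the tRNA and hold its fold. Most of the enzymes act in the cytosol or nucleus, a further set works on the tRNAs encoded by the mitochondrial genome, and some, such as Pus1, do both. Several are complexes in which 1 subunit carries the catalytic site and a partner is needed for binding the tRNA or for stability, so that the partners of each complex can be set side by side within a library.

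The anticodon arms of mitochondrial tRNAs are shown because they hold the bases on which the mitochondrial members act. Each is given 5′ to 3′ as DNA, read from GRCm39, with the anticodon in capitals. In mt-Te, mt-Tk, mt-Tq, mt-Tl1 and mt-Tw the first capital T is the wobble uridine that Mto1 and Gtpbp3 modify with taurine, and in mt-Te, mt-Tk and mt-Tq it is also thiolated by Trmu. In mt-Tm the first capital C is the cytosine methylated by Nsun3. In mt-Tw the a that follows the anticodon is modified by Cdk5rap1. The arms lie at chrM:14100-14116 on the minus strand, chrM:7719-7735 on the plus strand, chrM:3801-3817 on the minus strand, chrM:2704-2720 on the plus strand, chrM:4974-4990 on the plus strand and chrM:3868-3884 on the plus strand, in the order below.
mt-Te: atgatttTTCatgtcat
mt-Tk: ttaacctTTTaagttaa
mt-Tq: gagaattTTGaattctt
mt-Tl1: taagactTAAaaccttg
mt-Tw: cgagcctTCAaagccct
mt-Tm: tcgggccCATaccccga
The end of the Urm1 CDS is shown because the protein acts through it. Urm1 is a small ubiquitin-like protein whose last residues are a pair of glycines, on which Mocs3 builds the thiocarboxylate that gives its sulfur to the wobble uridine of cytosolic tRNAs. The last 30 bases of the CDS end in these glycine codons, in capitals, and the stop codon.
Urm1: ctcttcatctccacactgcacGGCGGCtga

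The labels were checked first, with 4 defining markers per tissue that were chosen with earlier results of these data known. All 4 heart markers peaked in the library labelled heart and all 4 lung markers in that labelled lung. The other 4 labels did not hold. The library labelled brain had 4052 RPKM summed over the small intestine markers and 36.4 over the brain markers, with Gfap at 0. The library labelled small intestine had 3151 RPKM summed over the brain markers and 92.5 over those of the small intestine. Summed kidney markers reached 19680 RPKM in the library labelled colon against 16.5 in that labelled kidney, and summed colon markers 5514 RPKM in the library labelled kidney against 7.49 in that labelled colon. Tissue names below are therefore labels of libraries only. The reads on CDSs ranged from 4504853 in colon to 10635031 in brain, with reads on 11520 to 15028 mRNAs. Brain, with the most reads, had reads on the fewest mRNAs, 11520, followed by lung with 11594. A lack of reads in these libraries was therefore common and did not follow from low depth. The 100 most-read mRNAs held 31.15% to 54.25% of the reads, and Kri1 alone held from 0.4004% in lung to 22.12% in kidney. Tbp, a transcription factor of every cell, had no reads in lung, 2 in brain, 2 in kidney, 3 in heart, 24 in colon and 22 in small intestine.

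A single library stood for each tissue, so that no replicate error could be had and tissues were not tested against each other. Members were compared by size, as log2(RPKM + 0.1) in a library minus the median of the other 5, with at least 2-fold called higher or lower. A fold on this scale is smaller than the fold of the RPKM itself for mRNAs with few reads. Only mRNAs with at least 60 reads summed over the libraries entered, which held for 38 of the 42 listed members and for 13476 mRNAs in all. The members left out were Trdmt1 with 27 reads, Tprkb with 29, Nsun3 with 29 and Trmt61a with 47. The sum included the library being called, so that some members passed only through a library in which they were high. Adat1 had 77 of its 95 reads in lung and Wdr4 31 of its 69 in heart. Counts above thus share values with the filter, which was the same for all mRNAs. Intervals are exact Poisson 95% intervals of the RPKM. The reads carry no molecular identifiers, so that intervals cover counting error only. In bulk tissue, fewer cells of a type and less RNA per cell cannot be told apart.

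The median density of the 42 listed members was lowest in the library labelled brain, at 0.504 RPKM against 4.83 to 7.10 in the others. Of the 38, 21 (55.3%) were at least 2-fold below the other libraries there, against 33.3% of all mRNAs tested, and 4 (10.5%) were above, against 25.4%. No reads were found for 11 members (28.9%), against 19.1% of all. The median difference was -1.78 on the log2 scale for the members and -0.07 for all mRNAs. With only the libraries labelled heart and lung as the reference, 5 members were above and 21 below. The shares of all mRNAs against that reference were not taken, so that these counts have no background. That reference set heart against lung alone and lung against heart alone. Against that reference 10 calls in all libraries changed sign, namely Adat1, Gtpbp3 and Urm1 in small intestine, Adat1 and Gtpbp3 in heart, Ftsj1, Osgep and Urm1 in lung, Ctu2 in brain and Trit1 in kidney. The same library had 9 of 13 markers of dividing cells at their highest, with a summed density of 346 RPKM against 34.2 to 218 in the others, and all 3 Paneth cell markers, with 5777 RPKM against 8.34 to 111. None of these markers was at 0 there, and their part in the low members was not tested. Among mRNAs with at least 300 reads, 7 of 19 members were below in brain, against 26.7% of all, so that low-read members made up much of the count.

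In the libraries labelled colon and heart the counts above were near those of all mRNAs and the counts below were smaller. In colon, 12 (31.6%) were above and 6 (15.8%) below, against 26.0% and 27.0% of all mRNAs, with a median of 0.59, and 2 members (5.26%) had no reads against 14.4% of all. In heart, 12 (31.6%) were above and 6 (15.8%) below, against 25.5% and 26.0%, with a median of 0.58, and 1 member (2.63%) had no reads against 4.83%. Among mRNAs with at least 300 reads, colon had 5 of 19 members above and 1 below, against 25.4% and 23% of all, and heart had 3 above and 4 below, against 21.1% and 28.2%, so that in heart more were below than above. The highest value of a member lay in colon for 12 members and in heart for 11, against 15.1% and 12.7% of all mRNAs that had theirs there. In small intestine, 9 (23.7%) were above and 4 (10.5%) below, against 31.6% and 27.1%, with a median of 0.19, and it was the library in which every tested member had reads, against 4.48% of all mRNAs without.

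In the library labelled kidney more members were below than above, and in that labelled lung both counts were alike. In kidney, 3 members (7.89%) were above and 14 (36.8%) below, against 24.0% and 23.4% of all mRNAs, with a median of -0.45, and 2 (5.26%) had no reads against 6.62%. Kri1 took its largest share of reads there, and with Kri1 left out of the library totals 7 members were above and 12 below. The counts were 8 above and 10 below without the 100 most-read mRNAs, and 9 above and 9 below against the mean of the other libraries. The shares of all mRNAs in these settings were not taken, so that the counts have no background. Under median-of-ratios scaling, 5 were above and 12 below, against 27.3% and 18.5% of all mRNAs. In lung, 13 members (34.2%) were above and 12 (31.6%) below, against 34.8% and 26.6%, with a median of 0.29, and 7 (18.4%) had no reads against 18.5%. The Poisson interval as a whole lay past the 2-fold line for 13 and 12 of these in lung, 3 and 20 in brain, 7 and 2 in colon, 10 and 4 in heart, 1 and 9 in kidney and 5 and 4 in small intestine, in the order above and below. The median of the other libraries was taken there as exact, though for some members it rested on 1 read. The 1 member above in kidney was Wdr4, with an interval of 0.462 to 1.77 RPKM. Its median came from 1 read in colon, whose interval of 0.00411 to 0.904 RPKM overlapped that of kidney. These counts therefore do not cover the counting error of both sides.

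**Figure D1:**
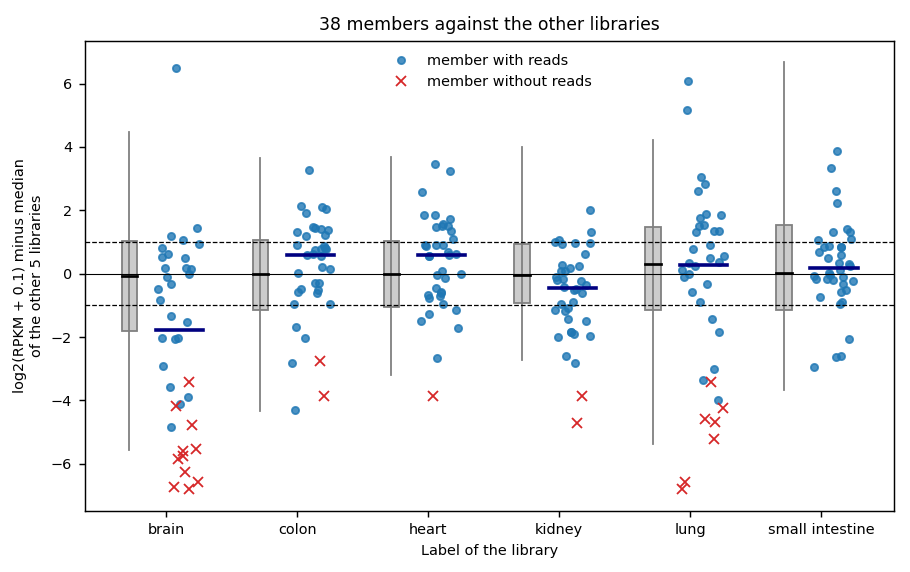
Each point is 1 of 38 members, placed by log2(RPKM + 0.1) in the library named on the x axis minus the median of the other 5 libraries. Crosses are members without reads, blue bars the members' medians, grey boxes the quartiles of all 13476 mRNAs with the 5th to 95th percentile as lines, and dashed lines the 2-fold limits. The members' median lay at -1.78 in the library labelled brain and at 0.59 and 0.58 in those labelled colon and heart.

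Across libraries, 31 of the 38 members (81.6%) had a highest value at least 4-fold above the lowest, against 85.6% of all mRNAs. The median log2 span was 5.11 for the members and 4.93 for all. Among mRNAs with at least 300 reads the members varied less, with a median span of 2.46 against 3.66, and 13 of 19 passed 4-fold against 80.5% of all. The 7 members under 4-fold were Elp2, Elp3, Adat2, Nsun2, Nsun6, Osgep and Tyw1. Reads in all 6 libraries were found for 20 members (52.6%), against 64.0% of all mRNAs. Between the libraries labelled heart and lung alone, 18 members differed at least 4-fold, against 41.7% of all.

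**Figure D2:**
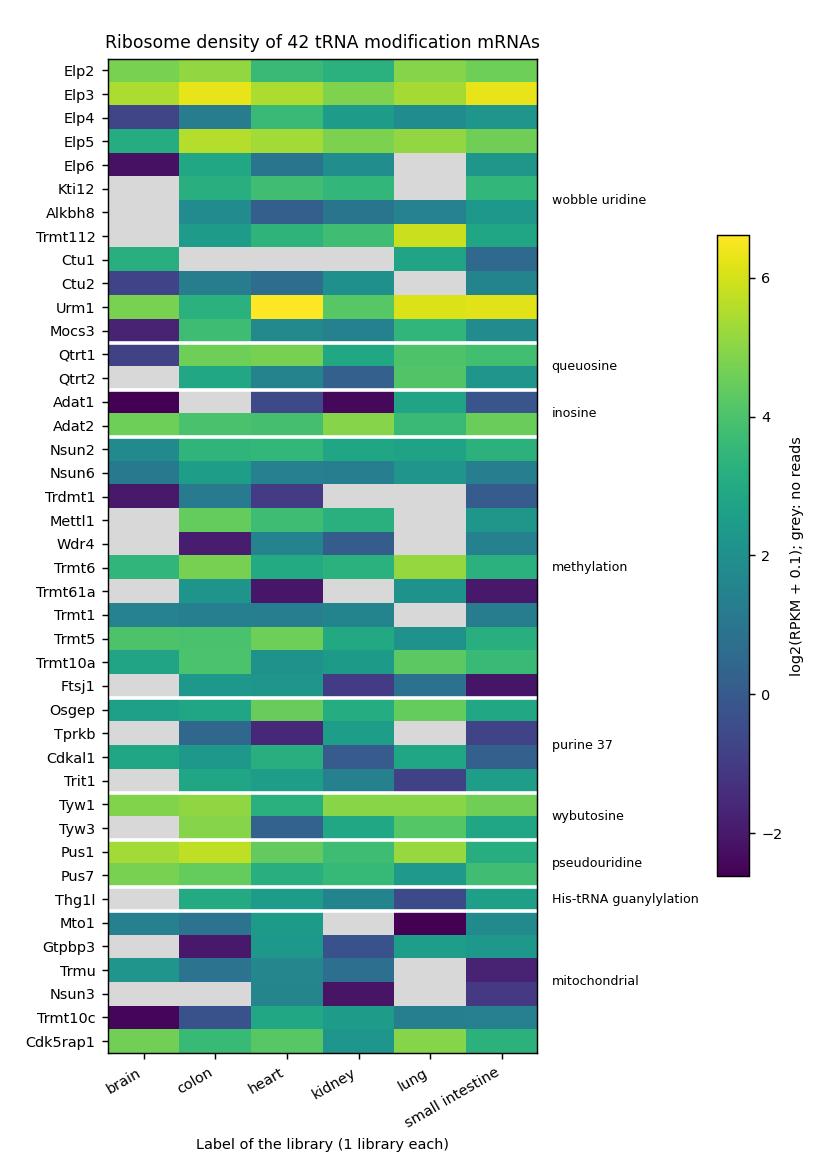
Ribosome density of the 42 listed members, as log2(RPKM + 0.1), in the 6 libraries on the x axis, with members grouped by modification and grey cells for no reads. Elp3 stays between 28.6 and 79.4 RPKM in every library, and the column labelled brain holds the most grey cells, 14 of 42.

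The wobble uridine group had 12 members. Elongator starts the side chain of the wobble uridine in cytosolic tRNAs, and Elp3, on chromosome 14 (GRCm39) from 65767898 to 65830550, is its catalytic subunit. Elp3 had 44.0 RPKM in brain, 76.1 in colon, 44.1 in heart, 28.6 in kidney, 41.2 in lung and 79.4 in small intestine. It was the highest member of the group by its median over libraries except for Urm1, and it varied little, with no library past 2-fold. Elp2, the WD-repeat scaffold that binds it, had 26.9 RPKM in brain, 34.9 in colon, 12.3 in heart, 9.47 in kidney, 30.7 in lung and 23.8 in small intestine. The libraries labelled heart and kidney were low, with differences of -1.13 and -1.5.

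Elp4, Elp5 and Elp6 form the accessory ring of Elongator, which binds tRNA. Elp4 and Elp6 varied far more than Elp2 and Elp3, with log2 spans of 4.28 and 6.20 against 1.87 and 1.47, and Elp5 spanned 2.50, mainly through brain. Elp5 had 8.36 RPKM in brain, 47.9 in colon, 40.5 in heart, 27.4 in kidney, 34.9 in lung and 24.1 in small intestine. Brain stood alone, 4.18-fold below the median of the others with an interval of 6.63 to 10.4 RPKM. Elp4 had 0.520 RPKM in brain, 2.28 in colon, 12.0 in heart, 5.52 in kidney, 3.58 in lung and 4.55 in small intestine. Its value in heart was 3.35-fold above the median of the others and that in brain, from 7 reads, 8.75-fold below. Elp6 had 0.118 RPKM in brain from 1 read, 7.23 in colon, 1.84 in heart, 3.64 in kidney, none in lung and 4.75 in small intestine. In lung 3 reads would have given 0.486 RPKM, which is 7.48-fold below the median of the other libraries, and the interval of Elp6 reached 0.598 RPKM. Its colon and small intestine values were called higher, by 1.92 and 1.32 on the log2 scale.

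Kti12, a P-loop protein that binds Elongator and is needed for its activity, had no reads in brain and in lung, where 3 reads would have given 0.268 and 0.369 RPKM. It had 9.07 RPKM in colon, 13.7 in heart, 11.0 in kidney and 11.2 in small intestine. Those 4 libraries lay close together, and the libraries labelled brain and lung were at least 41.1-fold and 29.9-fold below the median of the others.

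Alkbh8 methylates the side chain that Elongator starts, with Trmt112 as its partner. Alkbh8 had no reads in brain, 3.46 RPKM in colon, 1.04 in heart, 1.85 in kidney, 2.66 in lung and 4.79 in small intestine. It was called higher in small intestine, by 1.32 on the log2 scale, and lower in heart, by -1.27. Trmt112, a small zinc-binding protein that activates several methyltransferases, lies on chromosome 19 from 6885799 to 6890848. It had no reads in brain, 5.33 RPKM in colon, 10.4 in heart, 13.7 in kidney, 58.6 in lung and 6.98 in small intestine. The library labelled lung was 8.41-fold above the median of the others, with an interval of 50.2 to 68.2 RPKM from 170 reads, and in brain 3 reads would have given 0.752 RPKM.

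The thiolation branch adds sulfur to the same uridine. Urm1, whose glycine codons are shown above, lies on chromosome 2 from 29710087 to 29735017. It had 27.0 RPKM in brain, 9.52 in colon, 97.6 in heart, 18.3 in kidney, 68.3 in lung and 72.5 in small intestine. Heart, lung and small intestine were called higher and brain, colon and kidney lower, with the colon value resting on 13 reads. Mocs3, which activates Urm1, had 0.204 RPKM in brain from 3 reads, 13.4 in colon, 3.19 in heart, 2.58 in kidney, 11.0 in lung and 3.51 in small intestine. Colon and lung were higher by 2.03 and 1.75 on the log2 scale, and brain was lower at -3.57.

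Ctu1 and Ctu2 form the thiolase that takes the sulfur from Urm1. Ctu1, the catalytic subunit, on chromosome 7 from 43320796 to 43327726, had 8.88 RPKM in brain with an interval of 7.36 to 10.6, 6.67 in lung, 1.35 in small intestine and no reads in colon, heart and kidney. In those 3 libraries 3 reads would have given 0.529, 0.291 and 0.314 RPKM. Its value in brain was the largest positive difference of any tested member in any library, 6.49 on the log2 scale, against a median of 0 in the others. Ctu2, its partner, had 0.488 RPKM in brain, 2.30 in colon, 1.51 in heart, 3.93 in kidney, none in lung and 2.80 in small intestine. Kidney was called higher, by 1.33, and brain and lung lower, the opposite of Ctu1 in these 3 libraries.

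**Figure D3:**
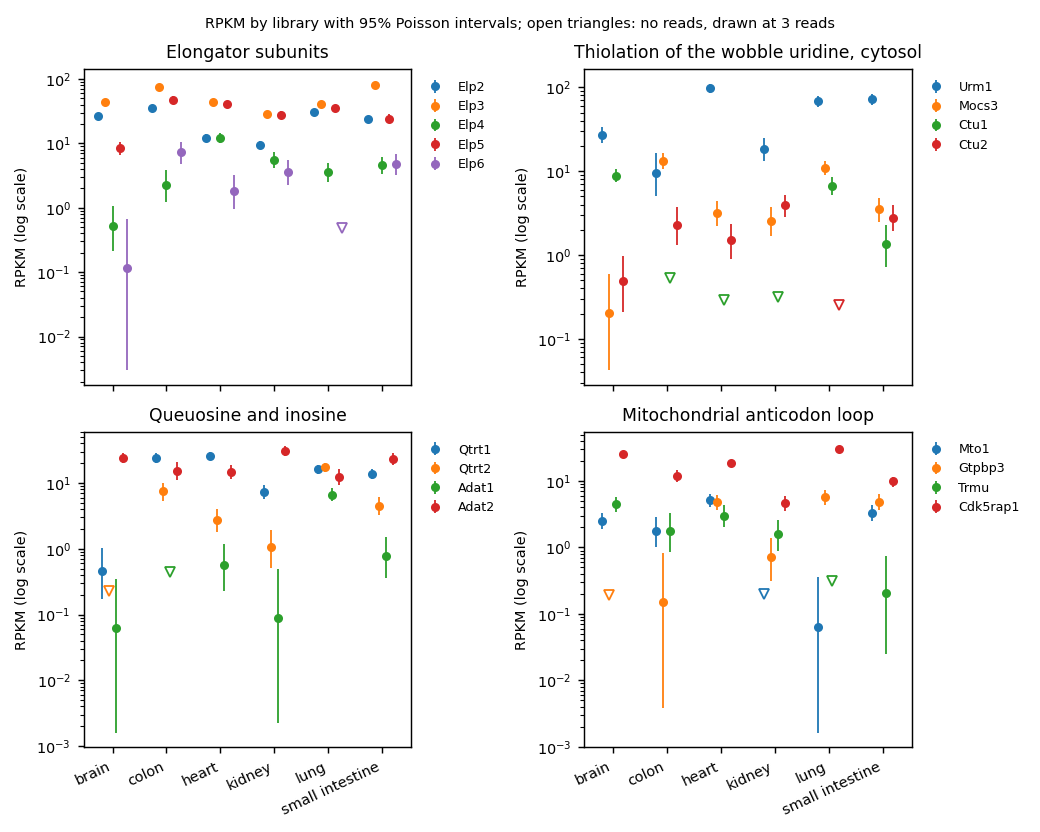
RPKM on a log scale with Poisson 95% intervals in the 6 libraries for the Elongator subunits, the cytosolic thiolation genes, the queuosine and inosine genes, and 4 genes acting on the anticodon loop of mitochondrial tRNAs. Open triangles are libraries without reads, drawn at the value of 3 reads. Elp3 stays within 28.6 to 79.4 RPKM while Elp6 reaches from no reads to 7.23, and Ctu1 and Ctu2 are without reads in different libraries.

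Queuosine replaces a guanine at the wobble position of the tRNAs for Asn, Asp, His and Tyr. Qtrt1, the catalytic subunit of the transglycosylase, on chromosome 9 from 21323111 to 21331575, had 0.467 RPKM in brain, 23.9 in colon, 26.2 in heart, 7.31 in kidney, 16.3 in lung and 13.9 in small intestine. Brain was 34.9-fold below the median of the others, from 6 reads, and kidney 2.23-fold below. Qtrt2, the partner without catalytic site, had no reads in brain, 7.47 RPKM in colon, 2.74 in heart, 1.06 in kidney, 17.3 in lung and 4.51 in small intestine. It was called higher in lung and colon, by 2.62 and 1.41 on the log2 scale, and lower in kidney, by -1.99. Both subunits were thus low in the libraries labelled brain and kidney.

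Inosine is made from adenosine by the Adat enzymes. Adat1, which acts on the adenosine next to the anticodon of the tRNA for Ala, had 0.0628 RPKM in brain from 1 read, none in colon, 0.571 in heart, 0.0881 in kidney from 1 read, 6.65 in lung and 0.786 in small intestine. Lung, with 77 of its 95 reads, stood apart with an interval of 5.25 to 8.32 RPKM, while every other library had fewer than 10 reads. Adat2, the catalytic subunit of the enzyme that makes inosine at the wobble position, had 24.0 RPKM in brain, 15.5 in colon, 14.7 in heart, 30.8 in kidney, 12.4 in lung and 23.3 in small intestine. No library was past 2-fold, and its log2 span of 1.31 was the smallest of the tested members.

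Among the 11 methyltransferase members, Nsun2 and Nsun6 had the smallest spans, 1.73 and 1.41 on the log2 scale. Nsun2, which methylates cytosines in many tRNAs, had 3.31 RPKM in brain, 10.7 in colon, 11.2 in heart, 6.97 in kidney, 6.44 in lung and 9.73 in small intestine. Only brain was past 2-fold, at -1.53 on the log2 scale. Nsun6, which methylates a cytosine of the acceptor stem, had 2.04 RPKM in brain, 5.60 in colon, 2.57 in heart, 2.40 in kidney, 4.53 in lung and 2.38 in small intestine. Colon was called higher, by 1.19, and its interval of 3.92 to 7.75 RPKM overlapped that of lung, 3.36 to 5.97. Trdmt1, which methylates the anticodon loop of the tRNA for Asp and 1 of the members not tested, reached 2.14 RPKM in colon and had no reads in kidney and lung.

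Mettl1 and Wdr4 form the complex that methylates a guanosine of the variable loop, Mettl1 as the catalytic subunit. Mettl1, on chromosome 10 from 126877283 to 126883367, had no reads in brain and lung, 21.3 RPKM in colon, 13.4 in heart, 9.35 in kidney and 4.72 in small intestine. Wdr4 had none in brain and lung, 0.162 RPKM in colon from 1 read, 2.77 in heart, 0.964 in kidney and 2.58 in small intestine. Both subunits were thus without reads in the same 2 libraries, in which 3 reads would have given 0.351 and 0.483 RPKM of Mettl1. Brain and lung also had the largest shares of all tested mRNAs without reads, 19.1% and 18.5%. In colon, where Mettl1 was at its highest, Wdr4 had 1 read.

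Trmt6 and Trmt61a form the complex that methylates an adenosine of the T loop. Trmt6, the subunit without catalytic site, had 11.0 RPKM in brain, 26.1 in colon, 7.95 in heart, 9.64 in kidney, 35.7 in lung and 9.56 in small intestine. Lung and colon were called higher, by 1.88 and 1.43 on the log2 scale, and the other 4 libraries lay between 7.95 and 11.0 RPKM. Trmt61a, the catalytic subunit, had too few reads to be tested, with 4.34 RPKM in colon from 17 reads, 4.16 in lung from 28, none in brain and kidney and 1 read each in heart and small intestine. Its reads thus lay mainly in the 2 libraries in which Trmt6 was high.

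The other methyltransferases modify guanosines or riboses. Trmt1, which methylates a guanosine between the D and anticodon arms, had 2.65 RPKM in brain, 2.46 in colon, 2.40 in heart, 2.85 in kidney, none in lung and 2.37 in small intestine. In lung 3 reads would have been 12.6-fold below the median of the others, which lay within 2.37 to 2.85 RPKM. The interval there reached 0.240 RPKM. Trmt5, which methylates the guanosine next to the anticodon, had 16.3 RPKM in brain, 15.4 in colon, 23.7 in heart, 7.81 in kidney, 4.22 in lung and 9.14 in small intestine. It was the highest of the methyltransferases by its median, and was called higher in heart, by 1.36 on the log2 scale, and lower in lung, by -1.84.

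Trmt10a, which methylates a guanosine near the 5′ end of the tRNA, had 6.65 RPKM in brain, 15.7 in colon, 4.20 in heart, 5.20 in kidney, 19.5 in lung and 11.9 in small intestine. Lung and colon were higher and heart and kidney lower. Ftsj1, which methylates riboses of the anticodon loop, lies on chromosome X from 8100859 to 8122127. It had no reads in brain, 4.80 RPKM in colon, 4.65 in heart, 0.407 in kidney from 3 reads, 1.73 in lung and 0.135 in small intestine from 1 read. Colon and heart were highest, by 3.27 and 3.23 on the log2 scale, against a median of 0.407 RPKM that rested on the 3 reads in kidney. Lung was also called higher, by 1.85, and brain, kidney and small intestine lower.

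The purine next to the anticodon is modified by a further group. Osgep, the catalytic subunit of KEOPS, which makes threonylcarbamoyladenosine, had 5.99 RPKM in brain, 6.85 in colon, 22.1 in heart, 8.40 in kidney, 21.2 in lung and 7.42 in small intestine. Heart and lung were both called higher, by 1.56 and 1.5 on the log2 scale, and the other 4 lay within 5.99 to 8.40 RPKM. Tprkb, a small subunit of KEOPS that was not tested, had 5.78 RPKM in kidney from 23 reads, 1.27 in colon from 3 reads, 0.498 in small intestine from 2 reads, 0.233 in heart from 1 read and none in brain and lung.

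Cdkal1 adds a methylthio group to the same nucleoside. It had 7.05 RPKM in brain, 4.87 in colon, 8.95 in heart, 0.913 in kidney, 7.16 in lung and 1.06 in small intestine. Kidney and small intestine stood apart, 7.73-fold and 6.68-fold below the median of the others. Trit1, which places an isopentenyl group on this adenosine in other tRNAs, had no reads in brain, 6.97 RPKM in colon, 5.67 in heart, 2.64 in kidney, 0.462 in lung and 5.79 in small intestine. Colon, heart and small intestine were called higher and brain, kidney and lung lower, but the call in kidney, -1.08 on the log2 scale, turned to 0.60 when colon or small intestine and to 0.59 when heart was left out of the reference.

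Wybutosine is a multi-ring base next to the anticodon of the tRNA for Phe. Tyw1, which forms its ring and acts before Tyw3, had 29.2 RPKM in brain, 33.9 in colon, 9.32 in heart, 31.0 in kidney, 31.6 in lung and 24.4 in small intestine. Heart alone was past 2-fold, 3.33-fold below the median of the others. Tyw3, a methyltransferase of the same pathway, had no reads in brain, 30.8 RPKM in colon, 1.11 in heart, 7.53 in kidney, 18.1 in lung and 7.13 in small intestine. Colon and lung were called higher, and heart was 6.78-fold below the median of the others, so that both wybutosine genes were low in the library labelled heart.

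Pus1 and Pus7 make pseudouridine in cytosolic tRNAs and other RNAs, and Pus1 also in mitochondria. Pus1, on chromosome 5 from 110919464 to 110928602, had 40.4 RPKM in brain, 52.4 in colon, 21.0 in heart, 13.4 in kidney, 36.2 in lung and 8.60 in small intestine. Colon was called higher, by 1.32 on the log2 scale, and small intestine and kidney lower, at -2.06 and -1.43. Pus7 had 27.1 RPKM in brain, 21.7 in colon, 8.99 in heart, 11.7 in kidney, 5.05 in lung and 13.8 in small intestine. It was called higher in brain, by 1.20, and lower in lung, at -1.43. Both pseudouridine synthases had densities over 20 RPKM in the library in which most members were low. Thg1l, which adds a guanosine to the 5′ end of the tRNA for His, had no reads in brain, 7.95 RPKM in colon, 5.33 in heart, 2.80 in kidney, 0.579 in lung from 4 reads and 6.00 in small intestine. Colon and small intestine were called higher and brain and lung lower.

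The mitochondrial members had their highest group median in heart, 4.98 RPKM over 6 members against 1.15 to 2.93 in the other libraries. The 6 of 6 members above the median of the other libraries there, the untested Nsun3 included, stand beside 25 of all 42. Members that act in mitochondria and also elsewhere, such as Pus1, were not counted in this group. The summed density in heart, 41.5 RPKM, was close to the 38.8 RPKM in lung. Mto1 and Gtpbp3 together place the taurine side chain on the wobble uridine of the arms shown above. Mto1, on chromosome 9 from 78355469 to 78383594, had 2.53 RPKM in brain, 1.77 in colon, 5.18 in heart, none in kidney, 0.0645 in lung from 1 read and 3.32 in small intestine. Gtpbp3, on chromosome 8 from 71940465 to 71952228, had no reads in brain, 0.150 RPKM in colon from 1 read, 4.79 in heart, 0.713 in kidney, 5.69 in lung and 4.86 in small intestine. Mto1 was called higher in heart, by 1.5, and lower in kidney and lung, and Gtpbp3 was called higher in heart, lung and small intestine and lower in brain, colon and kidney. Both were thus high in heart and low in kidney. Heart and small intestine were the only libraries in which both had more than 10 reads and similar density.

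Trmu, which thiolates the uridine of mt-Te, mt-Tk and mt-Tq, had 4.44 RPKM in brain, 1.77 in colon, 3.03 in heart, 1.58 in kidney, none in lung and 0.209 in small intestine from 2 reads. Brain was called higher, by 1.43 on the log2 scale, and lung and small intestine lower. Cdk5rap1, which adds a methylthio group to the purine next to the anticodon, had 25.2 RPKM in brain, 12.0 in colon, 18.4 in heart, 4.64 in kidney, 30.5 in lung and 9.86 in small intestine. It was the highest member of the group by its median, higher in lung and brain and 3.98-fold below the median of the others in kidney.

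Trmt10c, the methyltransferase subunit of mitochondrial RNase P, had 0.0757 RPKM in brain from 1 read, 0.715 in colon from 4 reads, 7.18 in heart, 5.31 in kidney, 2.50 in lung and 2.53 in small intestine. Heart and kidney were called higher, by 1.49 and 1.06, and colon and brain lower. Nsun3, which methylates the wobble cytosine of the mt-Tm arm, was not tested. It had 25 of its 29 reads in heart, with 2.93 RPKM and an interval of 1.89 to 4.32, 3 in small intestine, 1 in kidney and none in brain, colon and lung. In heart the 4 heart markers summed to 33400 RPKM, and the part of cell composition in these values was not tested.

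Within a library the ratio of 2 partners does not depend on the library total. Of 14 pairs that could be formed, 13 had ratios that spanned over 4-fold between libraries on the scale of log2(RPKM + 0.1), and Elp2 to Elp3 was the exception, from -1.84 in heart to -0.42 in lung. The count has no background of other pairs, the pairs share members, with Elp3 in 4 of them, and most members spanned 4-fold singly. Elp3 had the higher value against Elp2, Elp4, Elp5 and Elp6 in all 6 libraries, but for Elp5 the interval of the ratio included 1 in heart, 0.797 to 1.06, and in kidney, 0.80 to 1.15. The ratio of Elp5 to Elp3 was 0.190 in brain with an exact binomial 95% interval of 0.149 to 0.239, and 0.629 in colon, 0.919 in heart, 0.959 in kidney, 0.847 in lung and 0.304 in small intestine. Its intervals in brain and small intestine, the latter 0.257 to 0.359, did not overlap those of the other 4. Elp4 to Elp3 was 0.272 in heart and 0.193 in kidney, but 0.0118 in brain.

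Ctu1 to Ctu2 turned over between libraries. It was 18.2 in brain with an interval of 8.95 to 43.1 and at least 21.0 in lung by its lower bound, whereas in small intestine it was 0.482 with an interval of 0.233 to 0.941. In colon, heart and kidney, where Ctu1 had no reads, the upper bounds were 0.317, 0.262 and 0.102. Mto1 to Gtpbp3 turned over as well, with 1.08 in heart and 0.683 in small intestine, a lower bound of 10.4 in brain, 11.8 in colon with an interval of 1.83 to 494, 0.0113 in lung with an interval of 0.000283 to 0.0654, and an upper bound of 0.432 in kidney.

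Elp4 to Elp6 was also on both sides, with 6.51 in heart and an interval of 3.598 to 12.95, a lower bound of 5.67 in lung, 4.41 in brain with an interval of 0.567 to 199, 1.52 in kidney with 0.908 to 2.62, 0.956 in small intestine with 0.585 to 1.59, and 0.315 in colon with 0.149 to 0.636. Trmt6 exceeded Trmt61a, Osgep exceeded Tprkb and Elp5 exceeded Elp6 in 6 of 6 libraries. For Osgep and Tprkb the interval of the ratio included 1 in kidney, 0.890 to 2.45, and Tprkb and Trmt61a had too few reads to be tested. Qtrt1 to Qtrt2 was 3.20 in colon, 9.55 in heart, 6.92 in kidney and 3.07 in small intestine, but 0.940 in lung with an interval of 0.749 to 1.18. Urm1 to Mocs3 was 132 in brain, 30.6 in heart, 7.09 in kidney, 6.23 in lung and 20.7 in small intestine, and 0.713 in colon with an interval of 0.365 to 1.29. Mettl1 to Wdr4 ranged from 1.83 in small intestine to 131 in colon, the latter with an interval from 22.8 because Wdr4 had 1 read. Alkbh8 to Trmt112 was 0.648 in colon and 0.687 in small intestine, and 0.10 in heart, 0.135 in kidney and 0.0454 in lung.

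**Figure D4:**
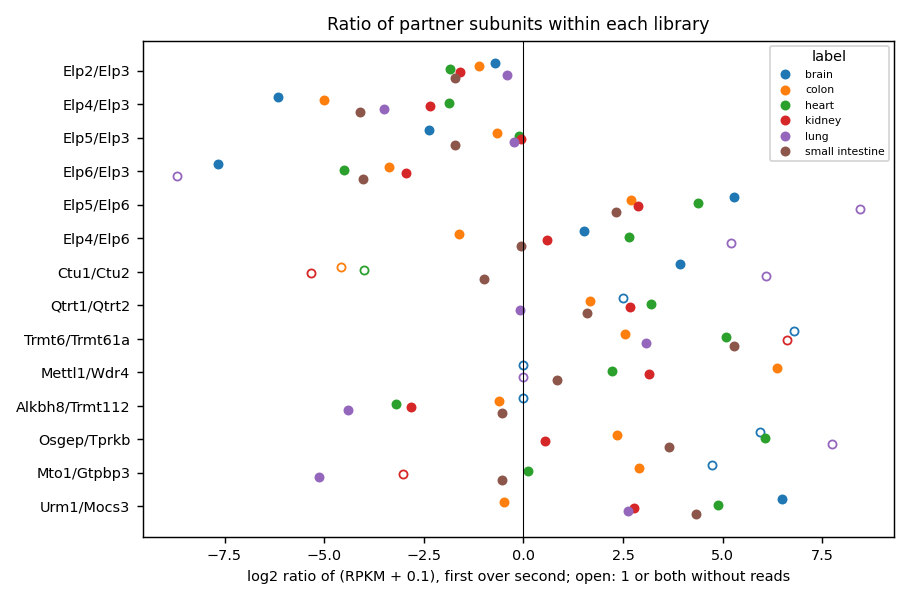
Each point is the log2 ratio of (RPKM + 0.1) of 2 partner subunits in 1 library, with the pair on the y axis and the library's label by colour. Open points have 1 or both partners without reads and depend on the pseudocount. Elp2/Elp3 holds between -1.84 and -0.42 while Ctu1/Ctu2 and Mto1/Gtpbp3 lie on both sides of 0.

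The CDSs of the members were set beside all tested mRNAs by their GC3 share, the percent of codons with a synonymous alternative that end in G or C. Over 40 members with the same transcript and CDS in the annotation used, the median was 55.3%, against 59.7% of 13322 tested mRNAs, and 11 were under 50%. Trmt10c was lowest at 34.9% and Mocs3 highest at 85.9%. The wobble uridine group had a median of 68.0%, with Kti12 at 73.5%, Trmt112 at 73.3% and Ctu1 at 72.5%, and the mitochondrial group 50.2%.

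In the library labelled brain, members of higher GC3 share had lower density. The 18 members of the upper part by GC3 share had a median difference of -3.49 there and 38.9% had no reads, against -0.16 and 16.7% in the lower 18. Over all tested mRNAs the upper quartile had -0.23 and 24.1% without reads, and the lower 0.03 and 14.2%. Members were split at their median share and all mRNAs by their outer quartiles, so that the sizes of these differences are not comparable. In lung 38.9% of the upper members and 0% of the lower had no reads, while both parts had a median difference of 0.17. Of all tested mRNAs, 22.9% of the upper quartile and 14.7% of the lower had no reads in lung. Ctu1, at 72.5% one of the most GC3-rich members, went the other way and was high in both libraries. In kidney the upper members had a median difference of 0.08 and the lower -0.56, the reverse of brain. In heart both parts were alike, at 0.58 and 0.59. The upper and lower members had 0.40 and 0.67 in colon, and -0.06 and 0.29 in small intestine. The part of base composition in these values was not tested.

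**Figure D5:**
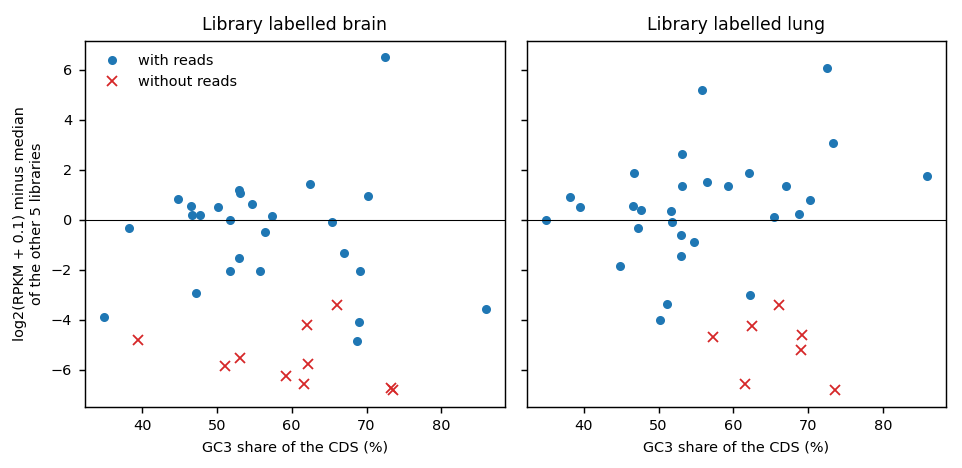
Members by the GC3 share of their CDS (x axis, percent) and by log2(RPKM + 0.1) minus the median of the other 5 libraries (y axis), in the libraries labelled brain and lung. Crosses are members without reads. In lung the crosses lie at high GC3 share, where 38.9% of the upper 18 members and 0% of the lower had no reads.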

How the data were processed

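Ribo-seq of 6 mouse tissues was analysed, with 1 library per tissue. For each protein-coding mRNA the authors deposited 1 RPKM value per library. The Methods, which concern the macrophage libraries, were applied here to the tissue libraries: adapters were removed with Cutadapt, reads under 15 nt were dropped, STAR aligned the rest to 1 mRNA per gene of Ensembl GRCm39 release 107, multi-mapped reads and those with over 2 mismatches were excluded, and P-sites were assigned by a random forest. The submitters' processing notes name the same tools and build. Excluding multi-mapped reads lowers genes with near-identical copies.

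Reads were recovered from RPKM times CDS length, with its smallest positive value in each library taken as a single read. In this unit 100% of values were whole numbers (tolerance 1e-06), and all read counts and intervals given here rest on it. Symbols, coordinates and CDSs came from GENCODE M39, a later annotation of the same build, in which no CDS of a member overlapped that of another gene. Of 18437 gene IDs, 13 had no symbol there. The transcript of Gtpbp3 was not found in M39 and the CDS length of Trmt10a differed, so both were left out of GC3 medians. Anticodon arms were located as 17 bases around the anticodon with a stem of 5 pairs, of which mt-Tl1 formed 4 and mt-Tw 3.

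Groups were the labels. Size calls used log2(RPKM + 0.1) against the median of the other 5 libraries, 2-fold, over mRNAs with at least 60 reads, and no test was made. Intervals were Poisson for RPKM and binomial for ratios, at 95%, and 3 reads were taken as the floor where there were none. All members were named, with values in every library for those past 2-fold in any library, for partners whose ratio spanned 4-fold and for the highest member of each group. The members, gene lists and markers were chosen with earlier results of these data known. Alternatives covered scaling, pseudocount, read filter, fold, reference, thinning to 4504853 reads and leaving out each library. The calls and read recovery were tested on simulated data. Changes were planted there only in mRNAs with far more reads than most members, so that calls resting on few reads were not covered. Python 3.11.15 with numpy 2.4.6, pandas 2.3.3, scipy 1.17.1 and matplotlib 3.10.9 was used.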

Additional observations from a re-analysis of the deposited data

How the results depend on the processing

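Of 227 comparisons of a count or a median with an alternative, 180 were within 1.5 times of the value reported and 47 were not. Among the alternatives, shares of all mRNAs above and below were taken only for median-of-ratios scaling and for at least 300 reads. Counts above and below in the other settings have no background. Of 116 calls of a member in a library, 104 were kept under median-of-ratios scaling, which shifted log2 values by -0.481 in lung to 0.187 in small intestine, 109 without Kri1, 104 without the 100 most-read mRNAs, 97 with a pseudocount of 1 RPKM, 88 after thinning and 77 at 3-fold, with 0 reversed in each. Counts above in kidney, 3 as reported, were 5 under median-of-ratios scaling, 7 without Kri1, 8 without the 100 most-read mRNAs (10 below), 0 with a pseudocount of 1, 5 without a read filter, 9 against the mean and 7 against heart and lung. Counts above in brain, 4 as reported, were 2 without Kri1, 2 after thinning and 7 against the mean. In small intestine, 9 above became 15 against the mean and 5 after thinning, and 4 below became 7 against heart and lung. In kidney, 14 below became 9 against the mean, and in heart 6 below became 11 against lung alone. With at least 300 reads the counts above were 2 in brain, 5 in colon, 3 in heart, 0 in kidney, 7 in lung and 1 in small intestine, those below 7 in brain, 1 in colon, 4 in heart, 7 in kidney, 3 in lung and 2 in small intestine, and 13 members spanned 4-fold. At 1.5-fold the counts above were 7 in brain, 19 in colon, 19 in heart, 8 in kidney and 14 in small intestine, and those below 11 in heart and 7 in small intestine. At 3-fold the counts above were 1 in brain, 5 in colon, 6 in heart, 1 in kidney, 8 in lung and 4 in small intestine, and those below 3 in heart and 9 in kidney. In heart and lung alone, 18 members spanned 4-fold. Leaving out a library gave 4 to 8 above in kidney, with 7 without colon, 8 without heart and 7 without small intestine, and 7 to 14 above in small intestine, with 14 without colon. The heart and lung reference set heart against lung alone and lung against heart alone. Against it, differences turned sign for Adat1 in heart (-3.33) and small intestine (-1.26), Ctu2 in brain (0.55), Ftsj1 in lung (-1.38), Gtpbp3 in heart (-0.24) and small intestine (-0.10), Osgep in lung (-0.06), Trit1 in kidney (0.60) and Urm1 in lung (-0.51) and small intestine (-0.17). Trit1 in kidney also turned against the mean (0.70) and without colon, heart or small intestine (0.59 to 0.60). The causes were not tested. The partner ratios spanning over 4-fold numbered 12 or 13 of 14 under each alternative run, and the median GC3 share was 54.7% to 55.5%. No paired analysis was possible because each tissue had 1 library. Depth limits low members, since 1 to 3 reads set the value of several.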

Other observations

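A second list of 45 tRNA modification genes outside the members was set beside them, of which 43 were listed and 33 had at least 60 reads. In the library labelled brain 7 of the 33 were at least 2-fold above and 9 below, with a median difference of 0.04 on the log2 scale, against -1.78 for the members. In lung 7 were above and 13 below, with a median of -0.53 against 0.29, and in kidney 4 were above and 8 below, with a median of -0.34 against -0.45. In colon 9 were above and 6 below, in heart 9 and 5, and in small intestine 9 and 7. Of all mRNAs tested, 25.4% were above and 33.3% below in brain, 34.8% and 26.6% in lung, and 24.0% and 23.4% in kidney. The shares were 26.0% and 27.0% in colon, 25.5% and 26.0% in heart, and 31.6% and 27.1% in small intestine. A span of at least 4-fold was found for 24 of the 33, against 85.6% of all mRNAs.

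The dihydrouridine synthases differed among themselves. Dus2 and Dus3l had 0 and 0.148 RPKM in brain, while Dus1l had 26.9 RPKM there and was called higher, by 1.84. Thumpd1, the adapter of the acetyltransferase Nat10, had 127 RPKM in small intestine and 4.31 in lung, whereas Nat10 stayed within 3.36 to 8.84 RPKM. Trmt2b, the mitochondrial methyluridine enzyme, had 9.92 RPKM in heart and at most 1.07 in the other libraries, and Osgepl1, the mitochondrial counterpart of Osgep, had 8.76 RPKM in heart, 2.44 in kidney, 0.316 in small intestine and none in brain, colon and lung. Over the whole list, 9 of the 33 were above in heart and 5 below. Prorp was among the latter, with 2.23 RPKM in heart and 2.76 in small intestine against 9.11 in kidney, 11.5 in colon, 13.7 in brain and 21.0 in lung.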
